A study of Mus musculus with 2 samples.

Results

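Interferon-induced genes are a set of transcripts that cells make in response to interferons, and 41 of them, of 31053 mouse genes measured, were followed across the T cell lineages of melanoma tumors. They were chosen by name, with earlier results of these data known, and sorted by role: 5 IFIT genes, 3 genes of the ISG15 system, 4 OAS genes, 16 other antiviral effectors, 6 nucleic acid sensors, 3 transcription factors and 4 GTPases that are best known as targets of interferon-γ. All 41 were found in the library, and 40 had at least 50 UMIs (unique molecular identifiers, each standing for 1 captured RNA molecule) over CD8+ T and Treg cells. The exception was Ifi44, with 5 UMIs in CD8+ T cells and 10 in Treg cells.

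The cells were TCR-β+ T cells sorted from B16 melanoma tumors and from tumors of B16–IL-33, a B16 line engineered to secrete IL-33, taken from C57BL/6J mice on day 9 after inoculation. Cells of both tumors were tagged with hashtag antibodies, pooled and sequenced as 1 10x 5′ gene expression library with a hashtag and a TCR library. B16–IL-33 makes IL-33 from the tumor cells themselves, and neither the number of animals in the pool nor which of them a cell came from is given by the labels. Each tumor is therefore 1 sample and each lineage 1 value: no difference between lineages or tumors has a replicate check, and no p-value is given.

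After filters on detected genes (200 to 2500) and on mitochondrial UMIs (under 5%), 9078 of 14035 barcodes remained, with 26606999 UMIs and a median of 2467. Each lineage was read from a cell's own UMIs. CD8+ T cells (Cd8a and Cd8b1 above Cd4 and Foxp3) numbered 1260, Treg cells (Foxp3 and no CD8 gene) 2609, Tconv cells (Cd4, no Foxp3 and no CD8 gene) 1769, NKT cells (Zbtb16, the gene of a transcription factor of NKT cells) 81 and myeloid cells (Csf1r and no Cd3e) 129, while 3270 cells fell in no lineage. Of the NKT cells, 21 were also Tconv cells, and of the myeloid cells 9, 5 and 4 were also Treg, CD8+ T and Tconv cells. Median depths were 3462.5, 2780 and 2498 UMIs in CD8+ T, Treg and Tconv cells. A Treg cell without a captured Foxp3 UMI counts as a Tconv cell under these rules.

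Markers that the rules did not use followed the labels in the T lineages. Ctla4 stood at 1187 CPM (UMIs of the gene per 1000000 UMIs of the same cells) in Treg cells, 421 in Tconv cells and 229.6 in CD8+ T cells, Nkg7 at 1859.7 CPM in CD8+ T cells and 454 and 419.9 in the others, and Cd40lg at 147 CPM in Tconv cells against 36.2 in Treg cells. In NKT cells, Klrb1c reached 61.1 CPM, against 7.37 in Tconv cells, and rests on 81 cells. Lyz2, a myeloid gene, was at 6679 CPM in myeloid cells but also at 107, 98.9 and 101 CPM in CD8+ T, Treg and Tconv cells, where 2.87%, 2.78% and 3.39% of cells thinned to 1500 UMIs held a Lyz2 UMI. The part of free or carried-over myeloid RNA in the levels below was not tested.

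Type I interferons signal through the receptor of Ifnar1 and Ifnar2 and the kinases Jak1 and Tyk2 to a complex that holds STAT2 and IRF9 and binds an element called the ISRE in front of target genes. Interferon-γ signals through Ifngr1 and Ifngr2 to a different element, the GAS. The targets include enzymes and binding proteins that act on viral RNA, the ubiquitin-like modifier ISG15, sensors that amplify the response, and GTPases that attack vacuoles of intracellular pathogens. In T cells the same programs accompany activation and inflammation, and their transcripts are widely used as a readout of exposure to interferon.

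RefSeq promoter windows (250 bases before to 50 after a gene's start, GRCm38.p6) were matched to 34 of the 41 genes by symbol. Mx1, Usp18, Ifi27l2a, Zbp1, Rtp4, Dhx58 and Parp14 had no entry. The ISRE was searched on both strands as GAAA, any 2 bases and GAAA (on the other strand TTTC, any 2 bases and TTTC) in the 250 bases before the start, and the GAS as TTCNNNGAA, which reads the same on both strands. The ISRE letters were found in 18 of the 34 genes (52.9%), against 936 of 27025 genes of the table (3.46%). The GAS letters were found in 6 of 34 (17.6%), against 8.13% of all genes. A match is a description of these letters and no evidence of binding.

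The following stretches are shown because these genes carry the results below, the first 5 as leading members of the type I group and the last as the GTPase that differed most, with the ISRE letters in capitals and each sequence given 5′ to 3′ on the strand of its gene.
Isg15, chr4:156200850-156200909, minus strand: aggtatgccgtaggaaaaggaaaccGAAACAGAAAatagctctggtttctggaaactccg
Ifit1, chr19:34640779-34640838, plus strand: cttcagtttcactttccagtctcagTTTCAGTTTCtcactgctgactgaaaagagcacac
Ifit3, chr19:34583382-34583441, plus strand: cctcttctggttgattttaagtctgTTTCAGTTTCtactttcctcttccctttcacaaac
Rsad2, chr12:26456538-26456597, minus strand: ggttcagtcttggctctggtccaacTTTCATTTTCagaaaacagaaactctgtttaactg
Bst2, chr8:71537562-71537621, minus strand: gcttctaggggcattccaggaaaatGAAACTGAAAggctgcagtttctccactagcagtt
Igtp, chr11:58199497-58199555, plus strand: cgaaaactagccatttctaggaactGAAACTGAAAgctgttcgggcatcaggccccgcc

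These 6 stretches lie before the start of their gene in GENCODE as well. In the Isg15 stretch the element begins 66 bases before the start, and in that of Igtp 34 bases before it. Igtp also holds the GAS letters, 45 bases before the start, and so do Bst2 and Oas1a, whereas Ifit2, Eif2ak2 and Isg20 hold the GAS letters without the ISRE letters. The stretch of Ifit3b has the same letters as that of Ifit3. The 5 IFIT genes lie together on chromosome 19 within 99.3 kb (34550694 to 34650009), and Rsad2 and Cmpk2 lie within 37.1 kb on chromosome 12.

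Summed over the 41 genes, the level was highest in Treg cells, at 8465 CPM (8402 to 8528), followed by Tconv cells at 5714 CPM (5648 to 5780.4) and CD8+ T cells at 4159.5 CPM (4103.5 to 4216). Ranges after a value are 95% intervals for counting error only, exact Poisson for levels and exact conditional binomial for ratios. Myeloid cells stood at 7212 CPM and NKT cells at 4772 CPM. The ratio of CD8+ T to Treg cells was 0.491 (0.484 to 0.499), that of Tconv to Treg cells 0.675 (0.666 to 0.684) and that of CD8+ T to Tconv cells 0.728 (0.715 to 0.741). The order held as well by single cells: with each cell thinned to 1500 UMIs, the median cell had 10 member UMIs among Treg cells, 6 among Tconv cells and 4 among CD8+ T cells. Between cells the variance of this number was 7.64 to 9.42 times its mean in the 3 lineages, so the intervals understate the spread between cells.

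Much of the order rested on Ifi27l2a (chromosome 12, 103442167 to 103443680), which encodes a small interferon-induced protein of membranes. Ifi27l2a stood at 5083 CPM in Treg cells, 2985 CPM in Tconv cells, 1766 CPM in CD8+ T cells, 2758 CPM in myeloid cells and 1469.6 CPM in NKT cells, or 60.1%, 52.3%, 42.5%, 38.3% and 30.8% of all member UMIs. After thinning, an Ifi27l2a UMI was found in 94.8% of Treg, 82.7% of Tconv and 68.9% of CD8+ T cells, against 95.4%, 88.1% and 81.7% before it. Myeloid cells, as a type of other origin, held it in 76.3% of cells. Levels of different genes are shares of UMIs in a 5′ library, without a correction for length, and Ifi27l2a had more UMIs than the other 40 genes together in Treg and Tconv cells. Without it, the sums were 3382 CPM in Treg, 2728 CPM in Tconv and 2394 CPM in CD8+ T cells, so that the ratio of CD8+ T to Treg cells narrowed to 0.708 (0.693 to 0.723) and that of Tconv to Treg cells to 0.807 (0.790 to 0.824).

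**Figure D1:**
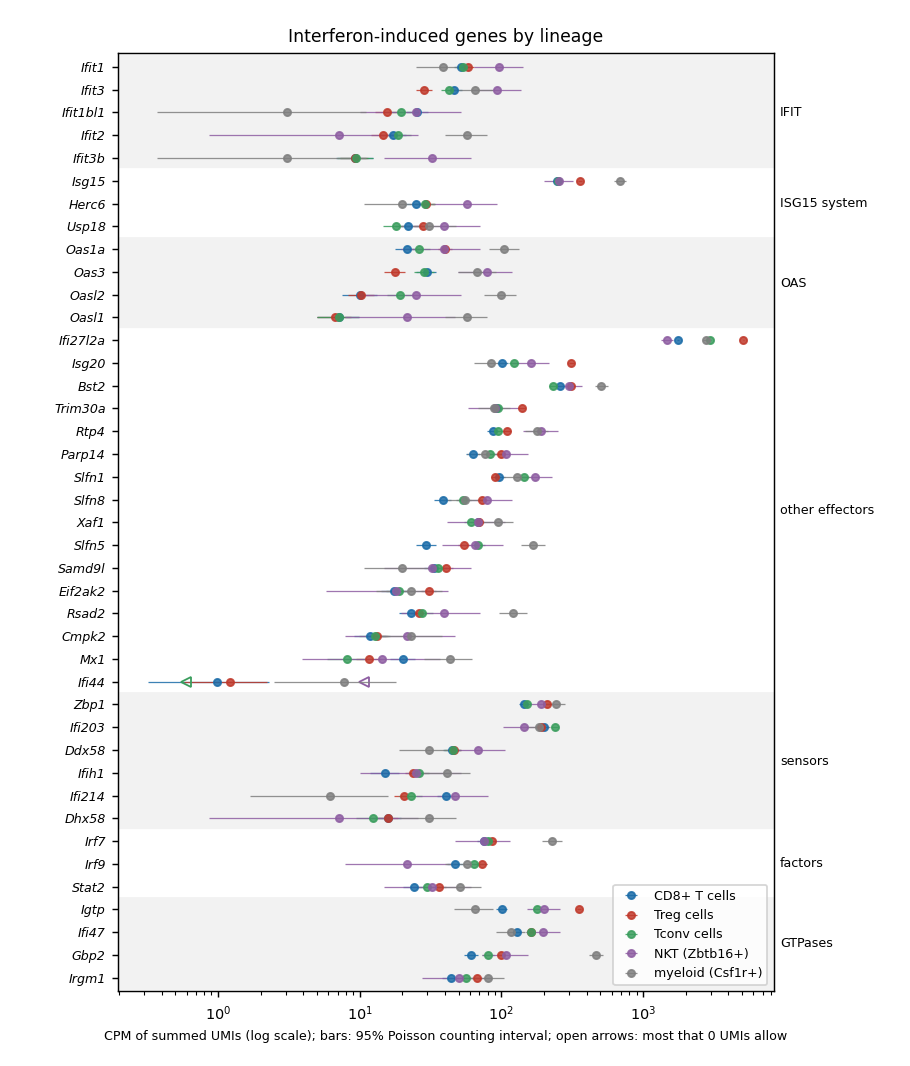
Level of each of the 41 genes (rows, grouped by role) as CPM of summed UMIs on a log axis, in CD8+ T, Treg, Tconv, NKT and myeloid cells, with 95% Poisson intervals for counting error. Ifi27l2a stands apart at 1469.6 to 5083 CPM, Igtp and Isg20 are highest in Treg cells, OAS genes are highest in myeloid cells, and open arrows for Ifi44 give the most that 0 UMIs allow in Tconv and NKT cells.

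Genes of the same list took different orders among the lineages. Of 40 genes with at least 50 UMIs, 14 were lower in CD8+ T than in Treg cells by at least 1.5-fold and 5 were higher, where 22.5% of all 9288 genes with as many UMIs were lower and 7.16% higher by that much. The median ratio was 0.829 over the 40 genes and 0.862 over all genes. Between Tconv and Treg cells, 4 genes were higher and 6 lower, beside 5.82% and 12.6% of all genes, with medians of 0.877 and 0.939. Between CD8+ T and Tconv cells, 2 of 40 genes were higher and 5 lower, beside 5.17% and 12.0% of all genes, with medians of 0.925 and 0.917. For this last pair of lineages, both shares and the median were close to those of all genes.

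The IFIT genes encode proteins that bind foreign RNA and block its translation, and as a group they were not lowest in CD8+ T cells. Their sum was 150.4 CPM (139.9 to 161.5) in CD8+ T cells, 145 CPM (134 to 155.5) in Tconv cells and 126 CPM (119 to 134) in Treg cells, a ratio of 1.19 (1.08 to 1.31) between CD8+ T and Treg cells. Ifit3 stood at 46.3 CPM in CD8+ T cells, 42.8 in Tconv cells and 28.4 in Treg cells. Ifit1, the member of this group with most UMIs, differed less, at 52.1, 54.0 and 58.6 CPM in CD8+ T, Tconv and Treg cells. Ifit1bl1 was higher in CD8+ T than in Treg cells, at a ratio of 1.65 (1.28 to 2.12), beside 1.63 (1.35 to 1.96) for Ifit3.

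In the ISG15 system, Isg15, a ubiquitin-like protein that is joined to other proteins, led in Treg cells at 360 CPM, against 252 CPM in Tconv and 246 CPM in CD8+ T cells. Its ratio between CD8+ T and Treg cells was 0.682 (0.638 to 0.729), and after thinning 26.0% of Treg, 19.6% of Tconv and 18.3% of CD8+ T cells held an Isg15 UMI. Usp18, the protease that removes ISG15, and Herc6, the ligase that attaches it, were at 27.8 and 29.5 CPM in Treg cells and 21.8 and 24.9 CPM in CD8+ T cells. About 26.7% of the Herc6 transcript also lies, letter for letter over 60 bases or more, in the transcript of Gm45193, so its UMIs may be split.

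OAS genes encode sensors of double-stranded RNA that switch on RNA decay, and they differed little in sum between the T lineages, at 68.5 CPM in CD8+ T, 74.7 in Treg and 81.1 in Tconv cells. Single members went different ways. Oas1a was at 40.1 CPM in Treg and 21.6 CPM in CD8+ T cells, a ratio of 0.538 (0.430 to 0.671), whereas Oas3 was at 17.7 and 29.7 CPM, a ratio of 1.68 (1.33 to 2.12). Oasl2 was highest in Tconv cells, at 19.1 CPM against 10.3 in Treg and 10.1 in CD8+ T cells.

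Among the other effectors, Isg20, an exonuclease of single-stranded RNA, had the lowest Tconv to Treg ratio of the list. Isg20 (chromosome 7, 78913424 to 78920396) stood at 312 CPM in Treg, 123 CPM in Tconv and 101 CPM in CD8+ T cells, or ratios to Treg cells of 0.393 (0.359 to 0.429) and 0.324 (0.294 to 0.357). Its UMIs were found in 33.5% of thinned Treg, 13.6% of Tconv and 11.1% of CD8+ T cells. Bst2, or tetherin, which holds budding virus at the cell surface, varied less, at 308 CPM in Treg, 229.9 in Tconv and 259 in CD8+ T cells. Slfn5 and Slfn8, of a family that acts on transfer RNA and cell growth, were lower in CD8+ T than in Treg cells, at ratios of 0.540 (0.446 to 0.651) and 0.526 (0.445 to 0.619). Slfn1 was highest in Tconv cells, at 144 CPM, a ratio of 1.59 (1.43 to 1.76) to Treg cells. Mx1, a GTPase that traps viral particles, was higher in CD8+ T cells, at 20.2 CPM, than in Treg cells, at 11.6, or Tconv cells, at 8.17. It rests on 102, 96 and 41 UMIs.

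Of the nucleic acid sensors, Ifi203, a relative of the DNA sensor IFI16, and Zbp1, a sensor of Z-form nucleic acid, had most UMIs. Ifi203 was at 201 CPM in CD8+ T, 191 in Treg and 238 in Tconv cells, and Zbp1 at 143.5, 210.4 and 152 CPM. Ifi214, from the same chromosome 1 family, had the highest ratio between CD8+ T and Treg cells of the list, 1.98 (1.61 to 2.45), with 40.6 and 20.5 CPM. The RNA sensors Ddx58, which encodes RIG-I, and Ifih1, which encodes MDA5, differed, at ratios of 0.956 and 0.628 (0.475 to 0.822). The transcription factors Irf7, Irf9 and Stat2 were all lower in CD8+ T than in Treg cells, and Irf9 and Stat2, both parts of the ISRE-binding complex, passed 1.5-fold at 0.644 (0.552 to 0.749) and 0.666 (0.536 to 0.824).

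The GTPases summed to 680 CPM (662 to 698) in Treg cells, 477 CPM in Tconv cells and 334 CPM in CD8+ T cells, the latter a ratio of 0.491 (0.464 to 0.518) to Treg cells. Igtp (chromosome 11, 58199556 to 58207591), which encodes the immunity-related GTPase Irgm3, had the lowest CD8+ T to Treg ratio of all 41 genes, 0.287 (0.261 to 0.315), with 101, 352 and 178 CPM in CD8+ T, Treg and Tconv cells. Gbp2 and Irgm1 stood at ratios of 0.613 (0.536 to 0.6997) and 0.655 (0.558 to 0.767), and Ifi47 at 0.790 (0.718 to 0.868). Of the Igtp transcript, 8.16% is shared letter for letter with Irgm2.

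**Figure D2:**
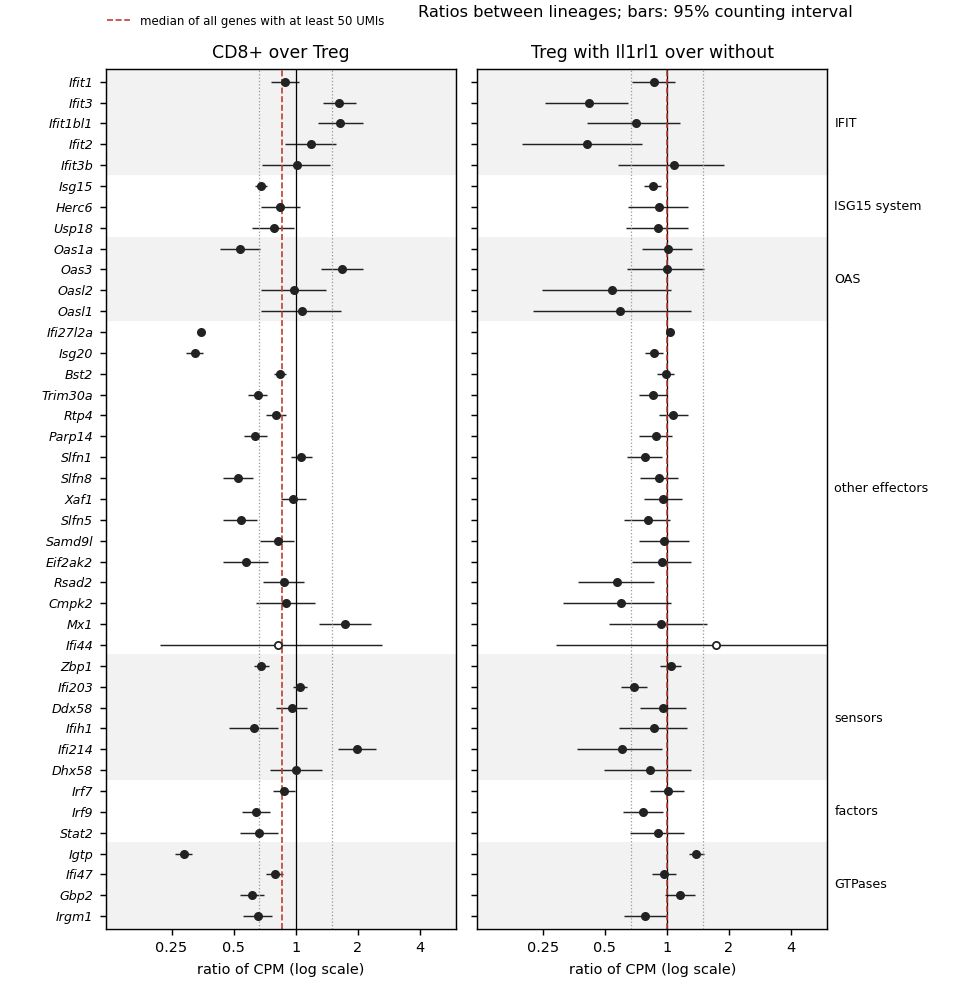
Ratio of CPM for each gene (rows, grouped by role) between CD8+ T and Treg cells (left) and between Treg cells with and without an Il1rl1 UMI (right), on log axes with 95% counting intervals. The dashed line is the median of all genes with at least 50 UMIs (0.862 and 0.997), the dotted lines mark 1.5-fold, and open points have fewer than 50 UMIs; Igtp, Isg20 and Ifi27l2a lie lowest on the left and Ifit2 and Ifit3 on the right.

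NKT cells, of which there were 81 with 278310 UMIs, had less Ifi27l2a and more of most others. Their sum was 0.835 (0.790 to 0.882) of that of Tconv cells with Ifi27l2a and 1.21 (1.13 to 1.29) of it without. Of 38 genes, 11 were higher and 5 lower than in Tconv cells by at least 1.5-fold, beside 10.7% and 23.1% of all genes, and the median ratio was 1.27 against 0.940 over all genes. The IFIT genes stood at 255 CPM (199 to 322), a ratio of 1.76 (1.36 to 2.25), and the OAS genes at 165 CPM, a ratio of 2.04 (1.47 to 2.77). Oas3 reached 79.1 CPM with 22 UMIs and Ifit3 93.4 CPM with 26 UMIs. Irf9 was the lowest, at 21.6 CPM with 6 UMIs, against 63.7 CPM in Tconv cells.

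In myeloid cells, 18 of 40 genes were higher and 6 lower than in the 3 T lineages together by at least 1.5-fold, beside 17.0% and 45.4% of all genes, with a median ratio of 1.38 against 0.728. The OAS genes differed most, at 328 CPM (286 to 375) against 74.7, with Oasl1 at a ratio of 8.23 (5.55 to 11.95) and Oasl2 at 7.80 (5.82 to 10.32). Gbp2 was at 465 CPM against 83.5, Rsad2, or viperin, which makes a chain-ending nucleotide, at 122 CPM against 25.7, and Isg15 at 687 CPM against 299. The lowest ratios were those of Ifit1bl1, 0.159 (0.0192 to 0.578) on 2 UMIs, Ifi214, 0.231 (0.0626 to 0.594), Igtp, 0.275 (0.198 to 0.373), and Isg20, 0.419 (0.315 to 0.547). Myeloid cells hold 1.42% of kept cells in a T cell sort.

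The pathway above these targets was read from 32 further genes. None of the 9 ligand genes of type I and type III interferon that were searched (Ifnb1, Ifna1, Ifna2, Ifna4, Ifna5, Ifnk, Ifne, Ifnl2 and Ifnl3) nor Ifnlr1 had a UMI in any of the lineages. For each gene this allows up to 0.363 CPM in Treg, 4.62 CPM in myeloid and 10.8 CPM in NKT cells. Ifng, the gene of interferon-γ, was present, at 296 CPM in CD8+ T, 93.02 CPM in Tconv and 30.0 CPM in Treg cells, the reverse of the order of the GTPases. Of 20 pathway genes with at least 50 UMIs, 1 was higher and 8 lower in CD8+ T than in Treg cells by at least 1.5-fold, beside the 7.16% and 22.5% of all genes given above. Jak2 was at 42.2 CPM in CD8+ T, 80.9 in Treg and 79.7 in Tconv cells, Irf8 at 74.4, 156 and 52.6 CPM and Tmem173, which encodes the DNA-pathway adaptor STING, at 59.0, 116 and 87.8 CPM. Among receptors, Ifnar1 stood at 50.7, 83.3 and 58.0 CPM and Ifngr1 at 479.9, 673 and 572 CPM, whereas Ifngr2 was low in all 3, at 5.54, 12.7 and 15.5 CPM. Between Tconv and Treg cells 2 of these 20 genes were higher and 3 lower, beside 5.82% and 12.6% of all genes, and between CD8+ T and Tconv cells 2 were higher and 4 lower, beside 5.17% and 12.0%.

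The study is about Treg cells that carry IL1RL1, the receptor of IL-33, and 504 Treg cells held an Il1rl1 UMI and 2105 did not, at median depths of 2850 and 2772 UMIs. A cell that carries the receptor but gave no Il1rl1 UMI counts among those without it. The sum over the list was 8451 CPM in cells with and 8469 CPM in cells without it, a ratio of 0.998 (0.979 to 1.017), and 0.939 (0.911 to 0.967) without Ifi27l2a. Single roles lay further apart than the sum. The IFIT genes were at 93.4 CPM against 134, a ratio of 0.695 (0.582 to 0.826), with Ifit2 at 6.72 CPM against 16.5 and Ifit3 at 13.4 CPM against 32.2. Their ratios were 0.408 (0.198 to 0.760) and 0.418 (0.256 to 0.649), on 11 and 22 UMIs in the cells with Il1rl1. After thinning, 0.698% of cells with and 3.94% of cells without Il1rl1 held an Ifit3 UMI.

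Of 40 genes, 0 were higher and 7 lower in Treg cells with Il1rl1 by at least 1.5-fold, beside 4.36% and 7.16% of all 8380 genes, and the median ratio was 0.892 against 0.997. The 7 were Ifit2, Ifit3, Oasl2, Rsad2, Oasl1, Cmpk2 and Ifi214, of which 2 had 200 UMIs or more over both groups (Ifit3 and Rsad2, the latter at 0.575, 0.369 to 0.863). Ifi203, with 231 and 1350 UMIs, stood just short of 1.5-fold at 0.692 (0.599 to 0.796). Igtp, a GTPase, was at 454 CPM in cells with Il1rl1 against 327 CPM, a ratio of 1.39 (1.28 to 1.51). The other GTPases were not all on that side, with Gbp2 at 1.16 (0.975 to 1.37), Ifi47 at 0.970 (0.844 to 1.11) and Irgm1 at 0.785 (0.619 to 0.985), so the ratio of 1.19 (1.11 to 1.26) of their sum rests on Igtp. Lyz2 was at 39.1 CPM in the cells with Il1rl1 and 114 CPM in those without, and leaving out every cell with a Csf1r, Lyz2, C1qa, C1qb or Apoe UMI gave a ratio of the sums of 0.988.

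Tumor origin could be read for few cells, because 1730 UMIs of the hashtag library matched a tag and 22837655 matched none. Cells with at least 1 tag UMI were assigned where none of their tags belonged to the other tumor, which gave 245 Treg cells to B16 and 55 to B16–IL-33, and 215 and 53 of these rest on 1 tag UMI. In Treg cells the sum over the list was 6465 CPM in B16 and 9707 CPM in B16–IL-33, a ratio of 1.501 (1.42 to 1.58). The median cell stood at 5276 CPM in B16 and 6111 CPM in B16–IL-33, so the gap between typical cells was smaller than that between sums. Of 21 genes with at least 50 UMIs, 7 were higher and 0 lower by at least 1.5-fold in B16–IL-33, beside 9.94% and 13.2% of all 3019 genes, with medians of 1.29 and 0.971. This count was not redone without the barcode described next. Isg15, Ifi27l2a and Igtp, which are among the 7, fell below 1.5-fold once cells were limited as described there.

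A single barcode of the B16–IL-33 Treg cells, with 2 Csf1r, 2 Foxp3 and 13 CD3 UMIs, held 211 of their 1758 member UMIs (12.0%), among them 56 of 110 Isg15 UMIs and 20 of 32 Rsad2 UMIs, and it held all 62 Lyz2 UMIs. With Treg cells limited to those with a CD3 UMI and no Csf1r UMI, the ratio of the sums was 1.30 (1.23 to 1.38), that of Ifi27l2a 1.43 (1.32 to 1.54), that of Igtp 1.39 (1.04 to 1.85) and that of Isg15 1.42 (1.03 to 1.92), down from 2.66 (2.09 to 3.36). Without both Ifi27l2a and these cells the ratio was 1.15 (1.05 to 1.26). Cells of the tags numbered 1 gave 1.89 and cells of the tags numbered 2 gave 1.34, and Treg cells without a tumor, 2309 in number, stood at 8697 CPM.

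In Tconv cells the sums were 4897 CPM in 164 B16 cells and 5313 CPM in 17 B16–IL-33 cells, a ratio of 1.09 (0.945 to 1.24). Here 1 barcode with 2 Csf1r UMIs held 73 of 236 UMIs and all 12 Rsad2 UMIs of the B16–IL-33 cells, and the ratio without such cells was 0.818. In CD8+ T cells the sums were 4186 CPM in 103 cells and 3917 CPM in 19 cells, a ratio of 0.936 (0.829 to 1.05), and 1 barcode held 80 of the 330 UMIs of the latter. In both lineages the interval of the ratio of the sums held 1. Of 10 genes with at least 50 UMIs in Tconv cells, 0 were higher and 6 lower in B16–IL-33 cells by at least 1.5-fold, beside 10.7% and 22.3% of all 1258 such genes, with medians of 0.643 and 0.931. These 10 genes had 1 to 12 UMIs each in the 17 cells other than the 130 of Ifi27l2a, and the interval of 1 of the 6, Slfn1 at 0.169 (0.00420 to 0.975, from 1 UMI), lay below 1. Of 8 genes in CD8+ T cells, 1 was higher and 2 lower, beside 9.16% and 12.6% of 1157 genes, with medians of 0.972 and 1.016, and all 8 intervals held 1. The tags numbered 1 and 2 went opposite ways in both, at 0.471 and 1.80 in Tconv cells and 0.486 and 1.36 in CD8+ T cells. Whether the effect of the tumor differs between lineages was not tested.

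The list was unevenly spread over cells of each lineage. After thinning to 1500 UMIs, the 10% of cells with most member UMIs held 35.7% of all of them among CD8+ T, 33.8% among Tconv and 29.6% among Treg cells. No member UMI was seen in 57 of 1151 CD8+ T cells (4.95%, 3.77 to 6.37), 43 of 1447 Tconv cells (2.97%, 2.16 to 3.98) and 12 of 2155 Treg cells (0.557%, 0.288 to 0.971, Clopper-Pearson). The highest cell had 61, 85 and 96 member UMIs of 1500 in CD8+ T, Tconv and Treg cells. Isg15 was patchy, with a variance over mean of 3.31 in CD8+ T and 4.47 in Treg cells. Ifi27l2a was higher in this measure, at 5.52 and 7.17. Irf9 was at 0.974 and 1.06, which is the spread of plain counting. Its mean was 0.074 and 0.115 UMIs per cell, against 0.353 and 0.560 for Isg15, so the 2 genes were not compared at a like level.

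**Figure D3:**
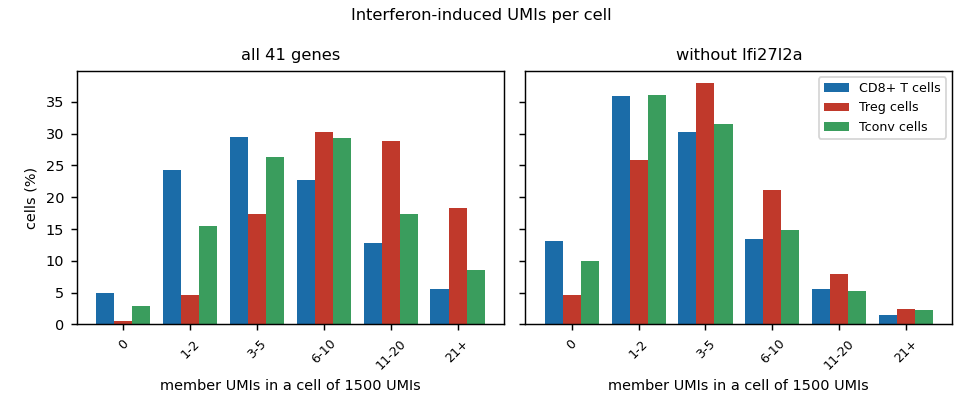
Share of cells (%) by the number of member UMIs in a cell thinned to 1500 UMIs, for all 41 genes (left) and without Ifi27l2a (right), in 1151 CD8+ T, 2155 Treg and 1447 Tconv cells. Treg cells lie to the right with a median of 10 UMIs against 6 and 4 on the left, and the 3 lineages lie closer once Ifi27l2a is left out.

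Across cells, the genes were weakly related, with the highest r in a small core around Isg15, Ifit1 and Ifit3. The median Pearson's r between pairs of genes other than the GTPases (log2 of thinned UMIs plus 1, genes with at least 50 thinned UMIs) was 0.0792 in CD8+ T, 0.0767 in Treg and 0.0894 in Tconv cells. The highest pair was Isg15 with Ifit3 in CD8+ T cells (r = 0.398) and Tconv cells (0.360) and Isg15 with Ifit1 in Treg cells (0.373). With the GTPases included, an r above 0.2 was found for 19 of 325 pairs in CD8+ T, 24 of 528 in Treg and 27 of 406 in Tconv cells. The share among pairs of other genes of like level was not computed. Ifi27l2a was closest to Bst2 in CD8+ T cells (0.271) and to Isg15 in Treg and Tconv cells (0.305 and 0.293). Pairs between GTPases and other genes had medians of 0.0696, 0.0558 and 0.0811. Cells share the library, the free RNA and, after thinning, 1 total, so counts of 2 genes in them are not independent, and low counts keep every r small.

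Isg15 followed the sum of the other members (without Ifi27l2a) most closely in all 3 lineages, at r of 0.442 in CD8+ T, 0.439 in Treg and 0.472 in Tconv cells, and Irf9 was among the 2 that followed it least in each, at 0.0583, 0.0695 and 0.0634. Among the genes outside the list most like the sum in their pattern were Ly6a (0.297) and B2m (0.255) in 1151 CD8+ T cells, Ly6a (0.295), Rnf213 (0.255) and Lgals3bp (0.252) in 2155 Treg cells and Ly6a (0.397) and AW112010 (0.269) in 1447 Tconv cells. B2m, Samhd1, Shisa5 and Ly6a were among the nearest 10 in each lineage. Ribosomal genes lay at the other end, with Rps2 at -0.263 in CD8+ T, Rps16 at -0.261 in Tconv and Eef1a1, a translation factor, at -0.228 in Treg cells.

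**Figure D4:**
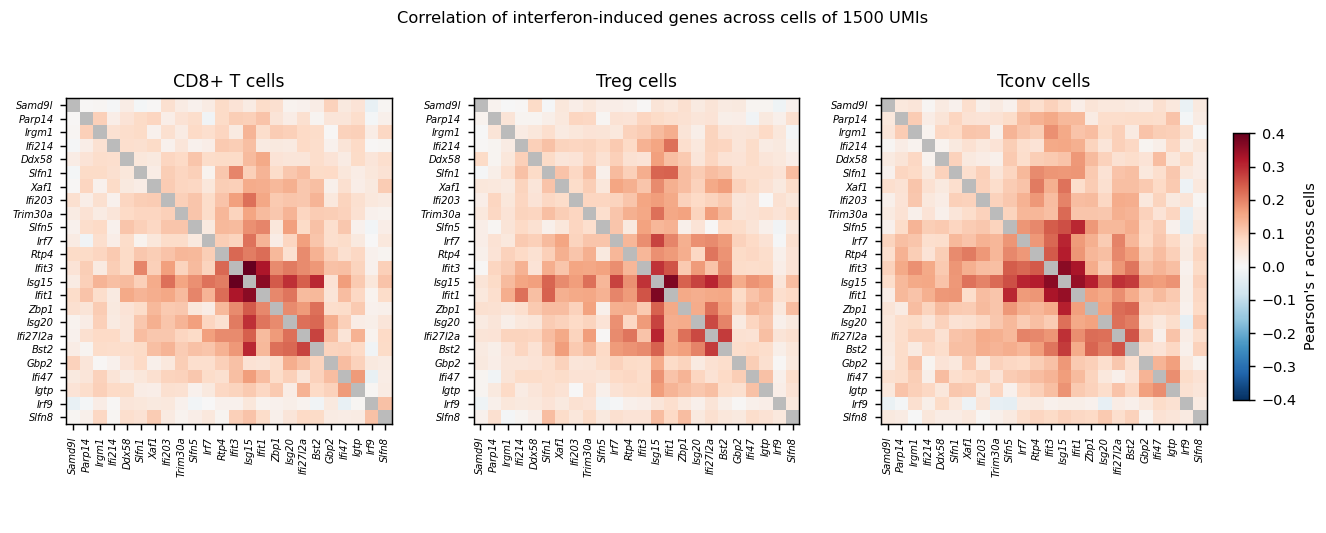
Pearson's r across cells thinned to 1500 UMIs between members with at least 50 thinned UMIs in all 3 lineages, in CD8+ T (left), Treg (middle) and Tconv cells (right), in 1 shared gene order. A dark block around Isg15, Ifit1 and Ifit3 reaches 0.398, 0.373 and 0.360, Ifi27l2a, Bst2 and Isg20 adjoin it, and the median pair outside the GTPases lies at 0.0767 to 0.0894.

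To read the core without the genes that chose the cells, the list was divided by position, cells were chosen by the 21 genes at odd places, and the 20 genes at even places were read. In the top 10% of CD8+ T cells (115 cells), the even genes stood at 8539 CPM against 2667 CPM in the other 1036 cells, a ratio of 3.202 (3.02 to 3.40). The ratio was 2.35 (2.27 to 2.42) for 216 Treg cells, from 14707 and 6271 CPM, and 2.88 (2.75 to 3.02) for 145 Tconv cells, from 10892 and 3781 CPM. Without Ifi27l2a, the ratios were 3.83, 3.24 and 3.92. With the even genes other than Ifi27l2a choosing and the odd genes read, they were 4.13, 3.82 and 4.72. The last cell taken had 4 to 6 UMIs of the odd genes, a number that 36 to 70 cells of a lineage shared, so single UMIs set the boundary.

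Single members were then counted where the remaining cells alone held at least 50 of their UMIs, a limit set after seeing the data, since a gene can otherwise pass only through the cells in which it is high. Read in cells chosen by the odd genes, 11 of 11 such genes were higher by at least 1.5-fold in CD8+ T, 14 of 14 in Treg and 13 of 13 in Tconv cells, beside 10.1%, 7.78% and 10.3% of all genes under the same limit. Read in cells chosen by the even genes without Ifi27l2a, 7 of 8, 14 of 14 and 8 of 9 were higher, beside 10.5%, 6.93% and 9.46%. The exception in both was Irf9, at 1.20 (0.554 to 2.33) in CD8+ T and 1.38 (0.801 to 2.24) in Tconv cells, against 2.04 (1.45 to 2.83) in Treg cells. Isg15 was at 8.49, 8.66 and 9.74, and Ifit1 at 12.6 in Treg and 10.6 in Tconv cells. Some high ratios belong to genes that had 50 UMIs over both groups of cells and fewer in the remaining cells, so they count in no share above. Ifit3 was such a gene in each lineage, at 11.3 (7.44 to 17.1) in CD8+ T, 14.5 (9.38 to 22.6) in Treg and 13.6 (9.09 to 20.4) in Tconv cells, from 36 to 44 UMIs in the remaining cells. Ifit1 in CD8+ T cells, at 10.1, and Rsad2, at 11.7 in Treg and 29.5 (15.9 to 58.1) in Tconv cells, were others, the last from 46 UMIs in the chosen and 14 in the remaining cells.

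Ifi27l2a, Igtp and Parp14 rose less than Isg15 in cells chosen by the genes at the other places of the list. These ratios follow the list and do not measure a gene's own spread over cells. Ifi27l2a stood at 2.79 in CD8+ T, 2.08 in Treg and 2.41 in Tconv cells, Igtp at 2.63, 1.89 and 2.73, and Parp14, an ADP-ribosyltransferase, at 1.86, 1.77 and 2.75. Isg20 was nearer to the core in CD8+ T cells, at 6.44 (4.67 to 8.83), than in Treg cells, at 2.83 (2.45 to 3.27). Of genes with a promoter window and 50 UMIs in the remaining Treg cells, the 12 with ISRE letters had a median ratio of 2.78 (from 1.89 to 12.6) and the 11 without had 3.21 (from 2.04 to 4.58).

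**Figure D5:**
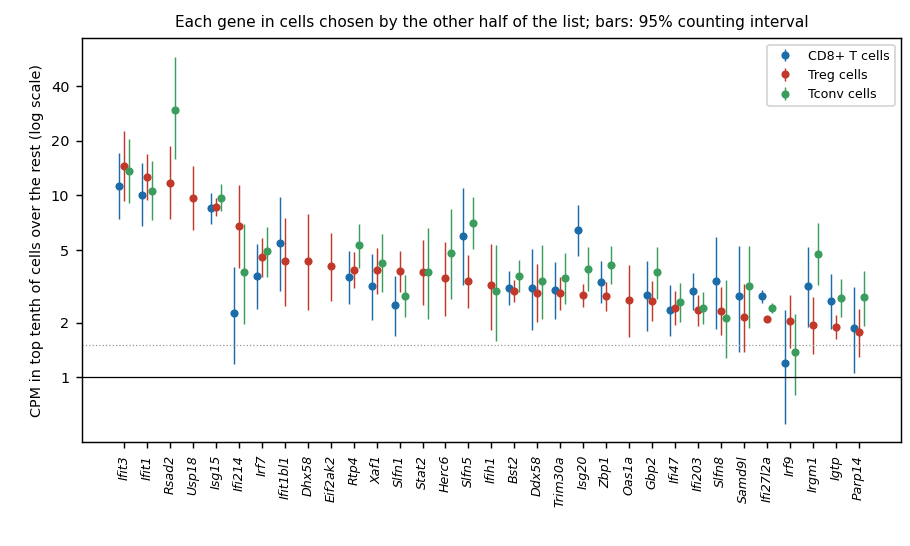
Ratio of CPM between the 10% of cells with most UMIs of the genes at the other places of the list and the remaining cells of the lineage, on a log axis, for each gene with at least 50 thinned UMIs in CD8+ T, Treg and Tconv cells, with 95% counting intervals. Ifit3, Ifit1, Rsad2 and Isg15 lie at 8.49 to 29.5, whereas Irf9, Igtp and Parp14 lie at 1.20 to 2.75. The limit of 50 is over both groups of cells. Ifit3, Rsad2 and, in CD8+ T cells, Ifit1 had fewer in the remaining cells and count in no share of the text. The highest value, of Rsad2 in Tconv cells, rests on 14 UMIs in the remaining cells. The solid line is 1 and the dotted line 1.5.

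Some myeloid genes moved with the choice of cells. The 6 genes of the myeloid list (Csf1r, Lyz2, C1qa, C1qb, Cd74 and Apoe) together were higher in the chosen cells by a ratio of 2.61 (2.09 to 3.24) in CD8+ T, 1.52 (1.34 to 1.72) in Treg and 2.32 (1.93 to 2.77) in Tconv cells. Lyz2 was at ratios of 4.204, 3.33 and 2.66, and Csf1r had 4, 5 and 1 UMIs in the chosen cells. Cd74, with more UMIs than any other of the 6, was at 1.90, 1.28 and 2.16. C1qb was at 1.93, 2.77 and 2.57 and C1qa at 3.47, 1.17 and 1.92, with every C1qa interval holding 1. Apoe was at 0.932, 0.835 and 2.89. The list of T cell genes (Cd3e, Cd3d, Cd3g and Trac) was at 0.948 (0.868 to 1.03), 0.962 (0.906 to 1.022) and 0.884 (0.815 to 0.957). Leaving out every cell with a Csf1r, Lyz2, C1qa, C1qb or Apoe UMI gave ratios of the even genes of 3.15, 2.30 and 2.97. Cells with Cd74 alone were kept in it. Chosen cells were shallower before thinning, with medians of 3051 against 3827.5 UMIs in CD8+ T, 2645.5 against 3224 in Treg and 2631 against 2787 in Tconv cells.

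Cells high in the list carried many different TCRs, and so did the other cells. In the TCR library, 146 chosen Treg cells with a clonotype had 146 clonotypes, 105 chosen Tconv cells had 105, and 86 chosen CD8+ T cells had 85. Among the other cells with a clonotype, 1430 Treg cells had 1394 clonotypes, 976 Tconv cells had 950, and 812 CD8+ T cells had 711. Cells of expanded clones, those with at least 2 cells of the lineage, made up 24.4% (15.8 to 34.9) of chosen and 21.2% (18.4 to 24.2) of other CD8+ T cells with a clonotype, 4.79% (1.95 to 9.63) and 5.24% (4.15 to 6.53) of Treg cells and 9.52% (4.66 to 16.8) and 5.43% (4.09 to 7.04) of Tconv cells. The intervals of chosen and other cells overlapped in each lineage.

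Cell states read from 1 or more UMIs of a marker divided the roles. Cells with Gzmb, the gene of granzyme B, had more of the list than cells without it, at ratios of 1.18 (1.12 to 1.23) in CD8+ T, 1.26 (1.23 to 1.29) in Treg and 1.40 (1.35 to 1.46) in Tconv cells. Cells with Ifng had fewer GTPase UMIs in each lineage, at 0.572 (0.447 to 0.724), 0.653 (0.487 to 0.857) and 0.781 (0.601 to 0.998). Their sum over the list was at 0.889, 0.902 and 0.915, with Ifi27l2a at 0.960, 0.849 and 0.809. The other genes outside the GTPases were lower only in CD8+ T cells with Ifng, at 0.887 (0.815 to 0.964). They stood at 1.07 (0.954 to 1.19) in Treg and 1.08 (0.978 to 1.195) in Tconv cells. Among them, the IFIT genes were at 0.946 in CD8+ T, 1.61 in Treg and 0.919 in Tconv cells. Cycling cells, with Mki67 or Top2a, had IFIT ratios of 0.740 (0.467 to 1.12) in CD8+ T, 0.709 (0.490 to 0.998) in Treg and 0.586 (0.343 to 0.941) in Tconv cells. Cells with Areg, the gene of amphiregulin, had more Ifi27l2a, at ratios of 1.46 (1.25 to 1.71) in CD8+ T, 1.09 (1.05 to 1.12) in Treg and 1.56 (1.45 to 1.68) in Tconv cells. They did not have more of the other genes outside the GTPases, at 1.03, 0.962 and 0.989. Among these, the IFIT genes were at 0.6565, 0.761 (0.597 to 0.963) and 0.765. The GTPases were at 1.57 (1.09 to 2.18) in CD8+ T, 1.025 (0.932 to 1.13) in Treg and 1.335 (1.09 to 1.62) in Tconv cells with Areg. Cells with Pdcd1, the gene of the receptor PD-1, had a sum at 1.185 in CD8+ T, 1.12 in Tconv and 0.956 in Treg cells. These marker UMIs come from the same cells and library, and whether the states differ between lineages in their relation to the list was not tested.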

How the data were processed

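TCR-β+ T cells of B16 and B16–IL-33 tumors were pooled, so all values come from 1 gene expression library, 1 hashtag library and 1 table of TCR contigs. The authors deposited UMI counts per gene and barcode, made with Cell Ranger on a combined human and mouse (mm10) reference; the file header names version 3.1.0 and the submitters' processing notes 6.1.1. The tool behind the deposited hashtag counts is not given in the sources used here. Gene positions are GENCODE and RefSeq (GRCm38).

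The 41 genes and all lists were chosen with earlier results of these data known. Kept barcodes had 200 to 2500 genes and under 5% mitochondrial UMIs, and the published study's own cell types were not used. UMIs were summed per lineage, scaled to CPM and compared as ratios where a gene had at least 50 UMIs over both groups, with exact 95% intervals that cover counting error only; 1.5-fold marked a difference by size. Cells of 1 library are not replicates, so no test was run. Shares of cells, distributions and correlations used cells with at least 1500 UMIs, thinned to 1500 without replacement, and genes with 50 thinned UMIs (200 for genes outside the list). Doublets were not called: 428 kept cells had 2 or more productive beta chains and were left out in an alternative. Members were named as the 2 with most UMIs of each role and the 5 highest and 5 lowest ratios of a comparison; others were named after their values were seen. A few items are not reported here. Levels of 0 UMIs were bounded by 3 counts. On Poisson counts simulated with 200 of 9288 genes changed between CD8+ T and Treg cells, the interval held the set fold in 96.0% of changed genes. The interval assumes such counts, so this checks the calculation only and not the spread between cells. Python 3.11.15, NumPy 2.4.6, SciPy 1.17.1, pandas 2.3.3, matplotlib 3.10.9 and BLAST+ 2.17.0 were used.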

Additional observations from a re-analysis of the deposited data

Results flagged for a closer look

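The sum over the list was lower in cells of expanded clones among CD8+ T cells and slightly higher among Treg cells. In CD8+ T cells it was 0.907 (0.874 to 0.941) times as high in 200 cells of expanded clones (3757 CPM) as in 721 cells whose clonotype occurred once (4142 CPM), with the IFIT genes at 0.714 (0.570 to 0.886) and the GTPases at 0.733 (0.635 to 0.843). In Treg cells it was 1.04 (1.043, interval 1.004 to 1.08) times as high in 98 cells of expanded clones as in 1607 others, with the ISG15 system at 1.30 (1.11 to 1.52) and the IFIT genes at 1.29 (0.967 to 1.70). The difference between the lineages was not tested, and the value in Treg cells fell below 1 under 3 alternatives given in the next section. In 1 of them, the mean over cells, the ratios were alike, at 0.981 in CD8+ T and 0.980 in Treg cells. The intervals cover counting error only, so opposite directions are not established.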

How the results depend on the processing

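Of 135 alternative values of 29 results, 81 stayed within the counting interval or within 1.5 times the count, 50 moved and 4 reversed. Ratios whose own interval held 1 also crossed 1 under some alternatives, and these crossings count among the 81 or the 50. They include the tumor ratios in Tconv and CD8+ T cells and the Il1rl1 ratio. No paired analysis was possible because the cells come from 1 pooled library, and leaving out a replicate was not possible for the same reason; the causes of the shifts were not tested. With cells of over 2500 genes kept, the ratio of the sums was 0.449 for CD8+ T over Treg, 0.730 for Tconv over Treg, 0.614 for CD8+ T over Tconv, 0.782 for NKT over Tconv, 1.06 for myeloid over T cells, 1.08 for Treg with over without Il1rl1, 1.76 and 1.07 for B16–IL-33 over B16 in Treg and CD8+ T cells, and 0.823 and 0.911 (reversed) for expanded over single clones in CD8+ T and Treg cells. As a mean over cells, CD8+ T over Treg was 0.528 and CD8+ T over Tconv 0.786, the tumor ratio in Treg cells 1.40, and the clone ratios 0.981 and 0.980 (reversed). Limited to cells with CD3 and no Csf1r UMI, the tumor ratios were 1.30 in Treg and 0.818 in Tconv cells, and the clone ratio in Treg cells was 0.981 (reversed). CD8+ T over Treg was 0.5004 at a mitochondrial limit of 10% and 0.484 without cells of 2 or more beta chains, which put the tumor ratio in CD8+ T cells at 1.06. Tags numbered 1 gave tumor ratios of 1.89, 0.471 and 0.486 in Treg, Tconv and CD8+ T cells, and tags numbered 2 gave 1.34, 1.80 and 1.36. With clones of 3 or more cells, the CD8+ T clone ratio was 0.762.

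Without Ifi27l2a, the sums stood at 0.708, 0.807 and 0.877 for the 3 lineage pairs, 1.21 (reversed) for NKT over Tconv, 1.52 for myeloid over T cells, 0.939 for Il1rl1 and 1.14 for Treg clones. Thinning to 1000 UMIs gave 2.92, 2.23 and 2.70 for the even genes, and without thinning the median r in CD8+ T cells was 0.137. At 2-fold, 3 genes passed between CD8+ T and Treg cells in place of 19, 1 between Tconv and Treg cells in place of 10 and 2 with Il1rl1 in place of 7, and with at least 200 UMIs 2 passed with Il1rl1. The following were chosen after seeing the data. Without Ifi27l2a, the top 10% of cells held 38.0%, 34.1% and 38.2% of UMIs in CD8+ T, Treg and Tconv cells, and the even genes stood at 3.83, 3.24 and 3.92. Exchanging the genes that choose and are read gave 4.13, 3.82 and 4.72. Without cells with a myeloid marker UMI, CD8+ T over Treg was 0.473 and the tumor ratio in Treg cells 1.37. Counting members by UMIs in the remaining cells stayed within 1.5 times the 6 counts over both groups of cells. The 1 library, the few tag UMIs and free RNA limit all comparisons.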
